A study of Mus musculus with 8 samples.

Results

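Carboxylesterases are serine hydrolases of the endoplasmic reticulum that cleave ester, amide and thioester bonds. In liver, kidney and intestine they activate or inactivate ester drugs and hydrolyse triacylglycerol, cholesteryl esters and other stored lipids. Mice carry many tandem copies of them, grouped in the Ces1 to Ces5 subfamilies, and the kidney copies are expressed mainly in the proximal tubule, a segment whose gene expression is known to differ between male and female mice. The genes described here are Ces1d, Ces1e, Ces1f, Ces1g, Ces2a, Ces2c, Ces2e, Ces2g and Ces3a, chosen by name as 9 members of the family. Of these 9 genes, 8 had a probe that could be named, and all 8 were tested among 19593 genes and unnamed transcripts. No probe was named for Ces3a, so it is not analysed here.

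The kidneys came from 4 NEKO and 4 control mice aged 8 weeks, each group with 2 females and 2 males, on a mixed 129Sv/J and C57BL/6J background. NEKO mice had the genotype Keap1-/-::Nrf2Flox/Flox::K5-Cre. Of the controls, 3 were K1Cre (Keap1+/-::Nrf2Flox/Flox::K5-Cre; control mice 4, 7 and 8) and 1 was K1 (Keap1+/-::Nrf2Flox/Flox; control mouse 1, a female), so every mouse carried floxed Nrf2 alleles and every control had lost 1 Keap1 allele. KEAP1 is the adaptor that sends the transcription factor NRF2 to degradation. The keratin 5 promoter drives Cre in squamous epithelium, where it removes Nrf2 and lets mice without Keap1 live past weaning, and the comparison asked what loss of Keap1 does to the kidney of such mice. Total RNA of the whole kidney was hybridised to Agilent 1-colour arrays. Values are log2 signal less the log2 of the array's 75th percentile, so a negative value is dimmer than that percentile, and they compare mice for 1 gene but not genes with each other. In whole-kidney RNA, fewer cells of a type and less RNA per cell cannot be told apart.

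The arrays were alike in depth of detection, with 61.8% to 65.7% of probes well above background in control and 61.9% to 64.7% in NEKO kidneys. Keap1, the deleted gene, was lower in every NEKO mouse, with a log2 difference of -1.63 (SE 0.10, adjusted p = 0.00458 by limma). The NRF2 target Nqo1 ran from 1.24 to 2.46 in control and from 3.89 to 5.45 in NEKO kidneys, with no overlap. Each of the 12 proximal tubule markers was detected above background in all 8 kidneys, and the log2 of their summed signal ran from 9.72 to 10.13 in control and from 9.81 to 10.11 in NEKO kidneys. The sum hides differences of single markers. At an unadjusted limma p under 0.05, 3 of the 12 were higher in NEKO and 1 lower, against 7.37% and 10.6% of all features. The smallest p were those of Slc5a2 (log2 difference -0.43), Slc13a3 (0.97) and Slc22a6 (0.34), with adjusted p of 0.12 to 0.16 by limma. Sex coincided with slide: 1 slide carried the females of both groups and the other slide the males. An effect of sex therefore cannot be told apart from one of slide, and every value given within a sex is also a value within a slide.

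The family lies in tandem on mouse chromosome 8. In RefSeq GRCm38.p6, Ces1a, Ces1b, Ces1c, Ces1d, Ces1e, Ces1f, Ces1g, Ces1h and Ces5a follow each other with no other protein-coding gene between them, 68 protein-coding genes follow, and Ces2a, Ces2b, Ces2c, Ces2e, Ces2f, Ces2g, Ces2h, Ces3a, Ces3b and Ces4a form the other row. The 250 bases before the RefSeq start site are shown for a pair of Ces1 genes and a pair of Ces2 genes. Ces1g and Ces2c are shown because they had the largest differences between the groups among the genes listed above, and Ces1e and Ces2a because they are close paralogs with small differences. Capitals mark TTATGTAA in the Ces1 genes and ACTTTGCC in the Ces2 genes, the 8-letter runs shared by most genes of each subfamily. Each sequence is written 5′ to 3′ on the strand of its gene.
Ces1g, chr8:93337210-93337459, minus strand: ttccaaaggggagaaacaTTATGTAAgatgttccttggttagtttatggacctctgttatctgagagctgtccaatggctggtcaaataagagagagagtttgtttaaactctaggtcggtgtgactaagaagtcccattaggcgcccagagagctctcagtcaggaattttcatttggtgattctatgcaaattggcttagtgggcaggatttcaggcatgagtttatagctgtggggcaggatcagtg
Ces1e, chr8:93229620-93229869, minus strand: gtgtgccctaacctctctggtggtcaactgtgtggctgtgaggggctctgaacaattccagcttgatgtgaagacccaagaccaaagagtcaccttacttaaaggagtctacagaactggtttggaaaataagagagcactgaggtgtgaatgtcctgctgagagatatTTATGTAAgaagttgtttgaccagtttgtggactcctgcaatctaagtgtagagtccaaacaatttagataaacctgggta
Ces2c, chr8:104846818-104847067, plus strand: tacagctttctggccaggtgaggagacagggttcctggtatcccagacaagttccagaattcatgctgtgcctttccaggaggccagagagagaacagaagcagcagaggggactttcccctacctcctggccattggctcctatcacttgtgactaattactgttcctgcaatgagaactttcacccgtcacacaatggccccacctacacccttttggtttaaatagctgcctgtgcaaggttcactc
Ces2a, chr8:104733753-104734002, plus strand: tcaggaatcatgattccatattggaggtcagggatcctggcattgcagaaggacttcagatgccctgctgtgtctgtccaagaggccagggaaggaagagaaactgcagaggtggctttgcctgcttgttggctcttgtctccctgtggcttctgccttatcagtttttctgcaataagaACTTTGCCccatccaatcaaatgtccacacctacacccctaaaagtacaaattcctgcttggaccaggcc

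TTATGTAA was found in 5 of the 6 Ces1 genes with a promoter window (Ces1a, Ces1b, Ces1c, Ces1e and Ces1g), against 0.819% of all 32851 windows of this length, counted on both strands. Its first base lay 232 bases before the start site in Ces1g and 81 bases before it in Ces1e. ACTTTGCC was found in 4 of 6 Ces2 genes (Ces2a, Ces2e, Ces2f and Ces2g), against 0.801% of all windows, and Ces2c lacked these letters. Tandem copies share sequence by descent, and both runs were chosen after the windows were read. TGACNNNGC, the core of the element that NRF2 binds, was found on neither strand in any of the 15 carboxylesterase windows, against 10.2% of all windows. AGAACA, an element of the androgen and glucocorticoid receptors, was found on either strand in Ces2c, Ces2g, Ces3b and Ces5a, against 16.1% of all windows. No window was available for Ces1d, Ces1f, Ces2b or Ces3a, so none of these runs or elements was looked for in those genes. A match is a description of letters, and none of the windows read was tested for binding.

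Between NEKO and control kidneys, 7 of the 8 carboxylesterases had a higher mean in NEKO and 1, Ces2g, a lower mean. Of all 19593 features tested, 8583 were higher and 11010 lower by this measure. None of the 8 passed the test across all features, in either direction (limma with sex as a term, Benjamini-Hochberg adjusted p under 0.05). Over all features tested, 0.097% were called higher and 0.128% lower. At an unadjusted p under 0.05, Ces1d, Ces1g and Ces2c were higher and none was lower, whereas 7.37% of all features were higher and 10.6% lower at that level. Ces1d had every NEKO mouse above every control mouse, as had 3.88% of all features, and no carboxylesterase had every NEKO mouse below, as had 5.39%. Within each sex taken separately, the NEKO mice of Ces1d, Ces1g and Ces2c all lay above the control mice of that sex, as they did for 7.03% of all features, and none of the 8 lay below in both sexes, against 10.5%. The median log2 difference of the 8 genes was 0.22, against -0.03 over all features.

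**Figure D1:**
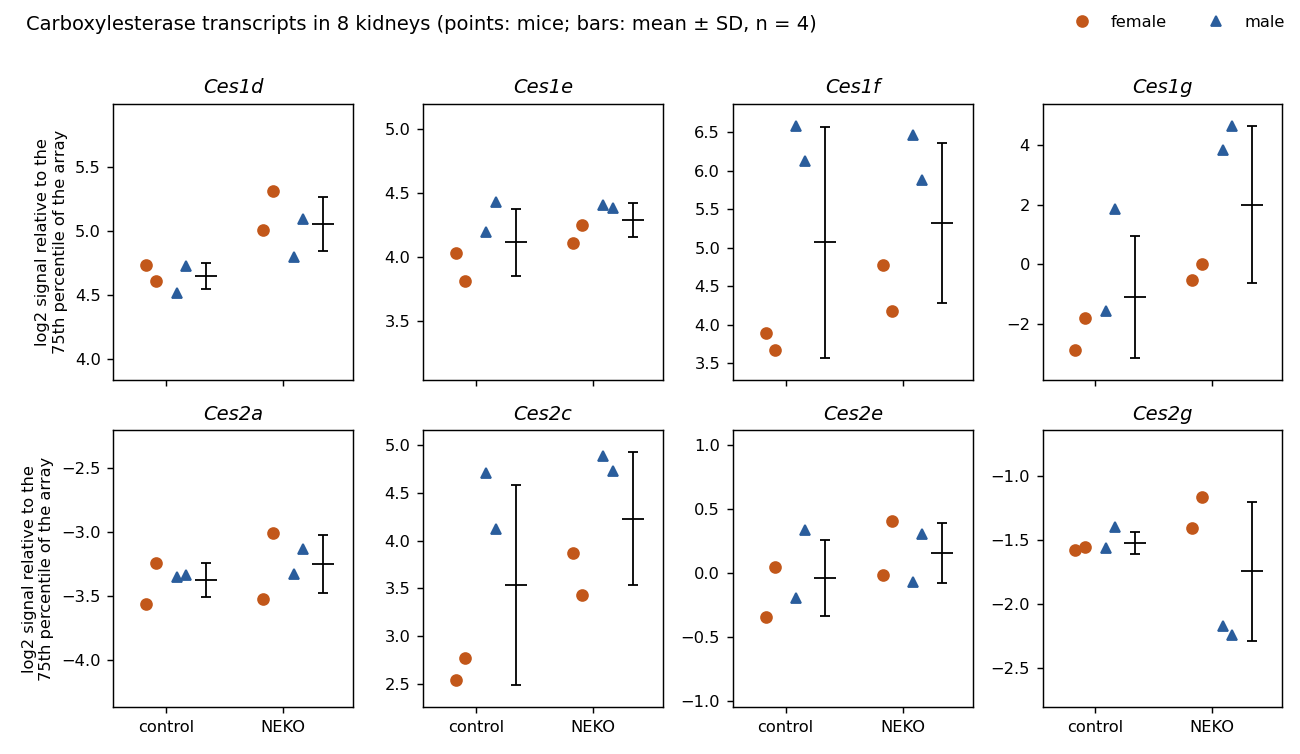
Log2 signal relative to the array's 75th percentile (vertical axes, each panel on its own range) of the 8 measured carboxylesterases in control and NEKO kidneys. Circles are females, triangles are males, and the black bars give the mean and SD of the 4 mice of a group. Ces1g, Ces1f and Ces2c spread widely by sex, Ces1d is the gene whose groups do not overlap, and in Ces2g the 2 NEKO males stand below all other mice.

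Ces1g, a hydrolase of hepatic triacylglycerol and cholesteryl esters, had the largest difference of the 8 and also the widest spread between mice. Its log2 values were -2.88 and -1.82 in the control females and -1.58 and 1.87 in the control males. In NEKO kidneys they were -0.54 and 0.02 in the females and 3.84 and 4.66 in the males. The groups overlapped, since control male 7 was above both NEKO females, but within each sex both NEKO mice were above both control mice. The mean was -1.10 ± 2.06 in control and 2.00 ± 2.64 in NEKO kidneys (SD, n = 4 each), and the fitted log2 difference was 3.10 (SE 0.80, 95% interval 1.20 to 5.00), which is 8.58-fold. The adjusted p was 0.14 in limma, so this difference did not pass the test across all features. The two-sided exact permutation p over the 8 mice was 0.143. Unlike the fit, the permutation took no account of sex, so the spread between the sexes enters it. Leaving out control male 4 lowered the difference to 2.21, and without control male 7 it was 3.59.

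Ordered by mean, Ces1g was at -2.35 in control females, -0.26 in NEKO females, 0.14 in control males and 4.25 in NEKO males. NEKO females and control males were neighbours whose values overlapped, and the 2 control males were themselves 3.45 apart on the log2 scale. The NEKO less control difference was 2.09 in females and 4.11 in males, and the test of the difference between these effects gave 2.02 (SE 1.51, adjusted p = 0.72 by limma). A second Ces1g probe gave a log2 difference of 3.36, and after centring on the control mean the 2 probes were 0.20 apart (root mean square over the 8 arrays).

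Ces1d, the carboxylesterase best known as triacylglycerol hydrolase, also abundant in adipocytes, was the gene with the cleanest separation of the groups. Its values were 4.74 and 4.61 in control females, 4.52 and 4.73 in control males, 5.01 and 5.31 in NEKO females and 4.80 and 5.10 in NEKO males. All 4 NEKO mice were above all 4 control mice, although the closest pair, NEKO male 5 and control female 1, were 0.06 apart. The mean was 4.65 ± 0.10 in control and 5.06 ± 0.21 in NEKO kidneys (SD, n = 4), a fitted log2 difference of 0.41 (SE 0.11, 95% interval 0.14 to 0.67), or 1.32-fold. The adjusted p was 0.16 (limma), and the exact permutation p of 0.0286 is the smallest that 4 against 4 mice can give. The difference was 0.49 in females and 0.32 in males. The log2 of the summed signal of 7 adipocyte markers is given in the same order of mice as Ces1d above. It was 5.07, 6.39, 4.62 and 5.55 in control mice 1, 8, 4 and 7. In NEKO mice 2, 3, 5 and 6 it was 6.65, 5.24, 5.67 and 6.29. All 7 markers had a higher mean in NEKO, as had 8583 of the 19593 features. Their median log2 difference was 1.25, and none was called. Of the 8 adipocyte markers, Adipoq, Cfd, Cidec, Fabp4, Retn and Pparg were well above background on all 8 arrays, Plin1 on 7 and Lep on 0. The part of these markers in the Ces1d difference was not tested.

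Ces1e, known as egasyn, holds β-glucuronidase in the endoplasmic reticulum. It ran from 3.81 to 4.43 in control and from 4.11 to 4.41 in NEKO kidneys, with overlapping groups. The log2 difference was 0.17 (SE 0.09), with a 95% interval of -0.05 to 0.40 that spans 0 (limma adjusted p = 0.37). Its neighbour Ces1f, a second triacylglycerol hydrolase, had 3.89 and 3.67 in control females, 6.58 and 6.13 in control males, 4.77 and 4.18 in NEKO females and 6.46 and 5.87 in NEKO males. The values fell into a female and a male range with no overlap, and within the males the NEKO and control mice were intermixed. The log2 difference between NEKO and control was 0.25 (SE 0.25, 95% interval -0.35 to 0.86, adjusted p = 0.61 by limma), being 0.70 in females and -0.19 in males.

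Of the Ces2 genes, Ces2c, whose product hydrolyses acylcarnitines and acylglycerols, had the largest difference. Its values were 2.54 and 2.77 in control females, 4.70 and 4.13 in control males, 3.87 and 3.43 in NEKO females and 4.88 and 4.73 in NEKO males. Each NEKO mouse was above both controls of its own sex, by a clear gap in females and by as little as 0.03 in males. The fitted log2 difference was 0.69 (SE 0.19, 95% interval 0.23 to 1.15), 1.62-fold, with an adjusted p of 0.16 in limma. The exact permutation p over all 8 mice was 0.314, from a permutation that took no account of sex. The log2 difference was 0.99 in females and 0.39 in males. A second probe gave 0.92.

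The remaining Ces2 genes differed less than their mice did. Ces2a, a hydrolase of drugs and acylglycerols, lay between -3.57 and -3.25 in control and between -3.52 and -3.01 in NEKO kidneys, with a log2 difference of 0.13 (95% interval -0.19 to 0.44, limma adjusted p = 0.63). Ces2e, known from the intestine, lay between -0.34 and 0.34 in control and between -0.07 and 0.41 in NEKO kidneys, with a difference of 0.19 (95% interval -0.24 to 0.63, limma adjusted p = 0.59). The second Ces2e probe gave -0.25, so the sign of the Ces2e difference depended on the probe, and the mean of both probes gave -0.03.

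Ces2g stood apart in the pattern of its values. It was -1.57 and -1.55 in control females, -1.56 and -1.40 in control males, -1.41 and -1.16 in NEKO females, and -2.17 and -2.24 in NEKO males. Both NEKO females were above the control females and both NEKO males were below the control males. The fitted difference over both sexes was -0.22 (SE 0.21, 95% interval -0.71 to 0.27, limma adjusted p = 0.59), and it was 0.28 in females and -0.72 in males. The test of the male less the female effect gave -1.004 (SE 0.18), with an unadjusted p of 0.00116 and an adjusted p of 0.13 over all features in limma, so it was not called. Ces2g was the only one of the 8 genes under an unadjusted 0.05 in this test, as were 10.5% of all features, and none of the 8 was called, against 0.0153% of all features.

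**Figure D2:**
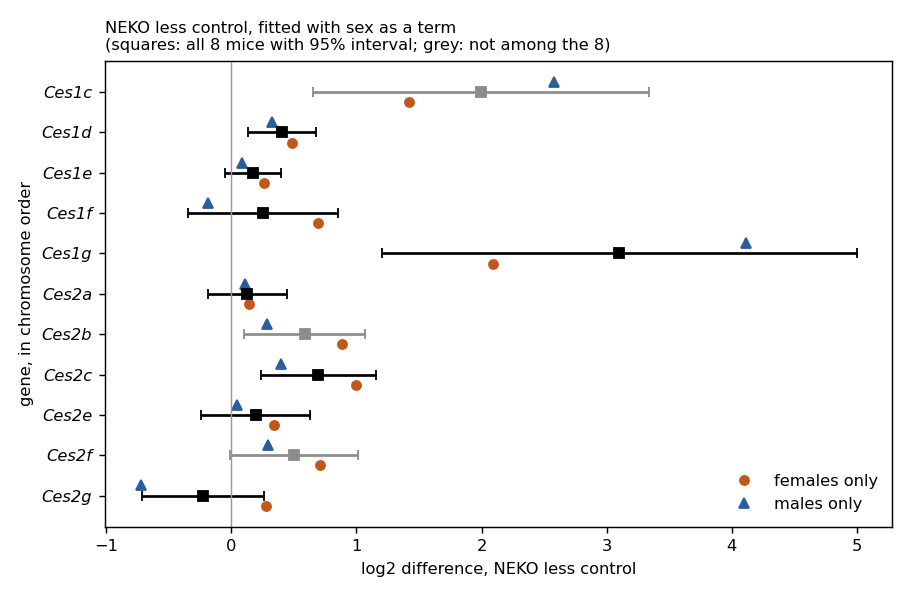
Log2 difference NEKO less control (horizontal axis) for the 11 tested carboxylesterases in chromosome order. Squares are the fit over all 8 mice with its 95% interval, black for the 8 genes of the description and grey for Ces1c, Ces2b and Ces2f, circles are the difference in the females alone and triangles that in the males alone. The interval lies above 0 for Ces1d, Ces1g and Ces2c, and for Ces1c and Ces2b of the grey genes, and Ces1f and Ces2g have their female and male values on opposite sides of 0.

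The difference between the sexes was read from the same fit, a test added after the values had been seen. Ces1f, with males less females at 2.13 on the log2 scale (SE 0.25, adjusted p = 0.034 by limma, 4.39-fold), and Ces2c, at 1.46 (SE 0.19, adjusted p = 0.038, 2.74-fold), were called higher in males, and none of the 8 was called lower. Over all features 0.48% were called higher and 0.306% lower in males. Both genes also had every male above every female, as had 6.73% of all features. None of the 8 had every male below every female, as had 5.28% of all features. Neither call was firm, since the Ces2c call was lost on leaving out any 1 of the 8 mice (difference 1.28 to 1.61), and the Ces1f call on leaving out NEKO mouse 3 or 5 or control mouse 1, 4, 7 or 8 (difference 1.95 to 2.34 over all 8 omissions). Ces1g was at 3.50 (SE 0.80, adjusted p = 0.085 in limma) and was called only without control male 4 (4.40, adjusted p = 0.024). The remaining members were nearer 0, with 0.30 for Ces1e, 0.07 for Ces2e, 0.05 for Ces2a, -0.13 for Ces1d and -0.42 for Ces2g. Of the proximal tubule markers, Slc22a6 (1.03, adjusted p = 0.017 by limma) and Slc7a13 (4.66, adjusted p = 0.045) were also called higher in males. The other markers of that list were not called. Of the other drug and xenobiotic hydrolases, only Ephx2 was called (0.91, adjusted p = 0.019), also higher in males. These calls outside the family were not checked by leaving out mice. As sex and slide coincided, these values cannot be told apart from a difference between the slides.

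In the genes with higher values in males, the gap was narrower in NEKO than in control kidneys except for Ces1g. It was 2.58 in control and 1.69 in NEKO kidneys for Ces1f, 1.76 and 1.16 for Ces2c, and 2.49 and 4.51 for Ces1g, each as the mean of 2 males less the mean of 2 females. Ordered by mean, Ces1f was at 3.78 in control females, 4.48 in NEKO females, 6.17 in NEKO males and 6.36 in control males, and the male groups overlapped. Ces2c was at 2.66 in control females, 3.65 in NEKO females, 4.41 in control males and 4.81 in NEKO males, and no neighbouring pair in this order overlapped. With 2 mice in each of these sets the change of the gap was called in none of these genes.

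**Figure D3:**
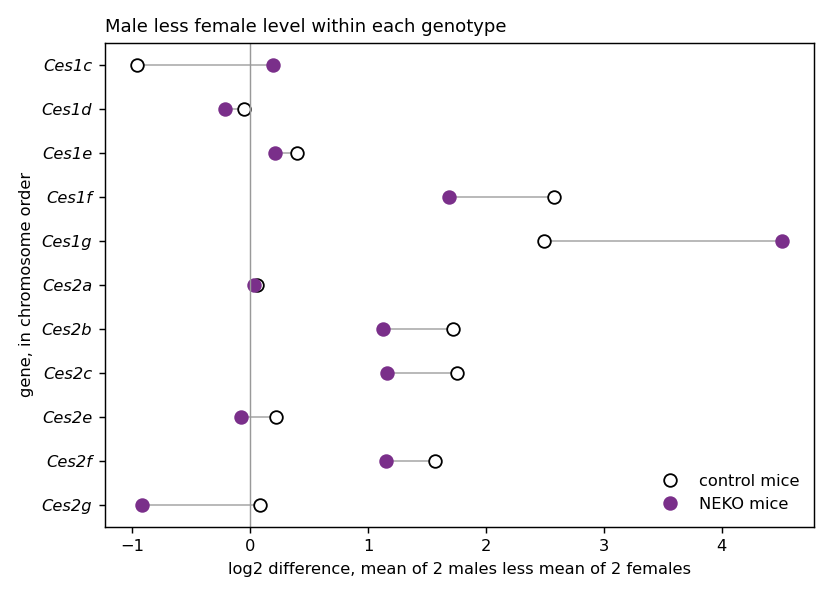
Log2 difference between the mean of 2 males and the mean of 2 females (horizontal axis) in control kidneys (open circles) and NEKO kidneys (filled circles) for each tested carboxylesterase in chromosome order, with a line joining the pair. Ces1f, Ces1g, Ces2b, Ces2c and Ces2f are above 1 in both genotypes, the gap of Ces1g is larger in NEKO kidneys (4.51 against 2.49), and Ces2g is at 0.08 in control and -0.92 in NEKO kidneys.

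The other carboxylesterases of the same clusters were read for comparison, and 3 of them were tested. Ces1c, which encodes the main secreted esterase of mouse plasma, was at -1.06, -3.08, -2.91 and -3.15 in control mice 1, 8, 4 and 7 and at -0.995, -0.301, 0.419 and -1.323 in NEKO mice 2, 3, 5 and 6. Control female 1, the only K1 mouse, was above NEKO male 6, and the other 3 controls were below all NEKO mice. The log2 difference was 2.00 (SE 0.57, adjusted p = 0.17 by limma) with the probe used and 0.38 with the dimmer second probe, so the probes disagreed in size. Ces2b had a difference of 0.59 (SE 0.20, adjusted p = 0.21) and its second probe 0.72. Ces2f had a difference of 0.50 (SE 0.22, adjusted p = 0.29). In all 3 of these genes the mean was higher in NEKO kidneys, as it was for 8583 of the 19593 features tested, and none was called.

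Ces2b and Ces2f followed Ces2c closely over the mice. After centring on the control mean, Ces2c and Ces2b differed by 0.08 and Ces2c and Ces2f by 0.18 (root mean square over 8 arrays). Males less females was 1.42 for Ces2b (adjusted p = 0.042 by limma, lost on leaving out any 1 mouse) and 1.36 for Ces2f (adjusted p = 0.052), and for both genes every male was above every female. These genes are neighbouring paralogs, and how far the probe of one copy also binds transcripts of another was not tested.

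**Figure D4:**
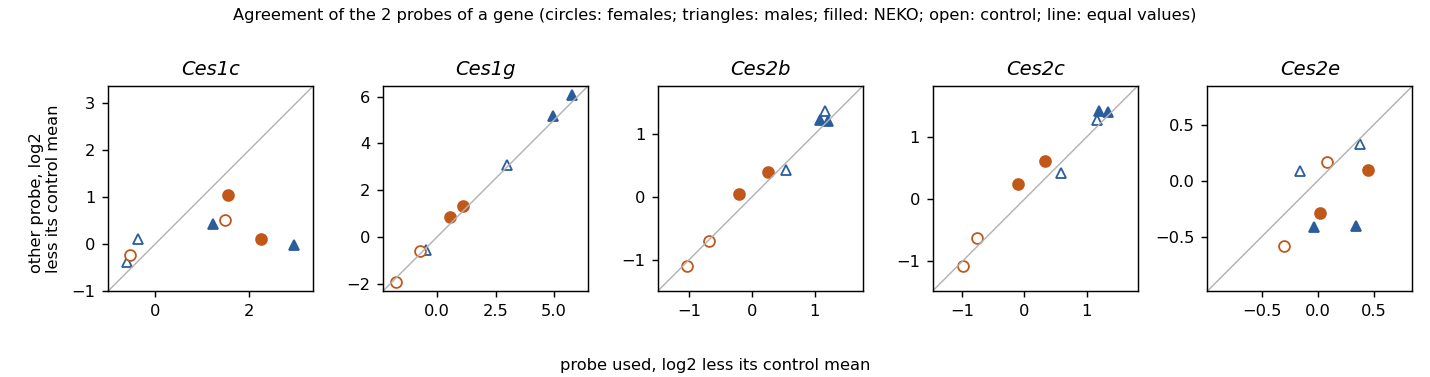
Control-centred log2 values of the second probe of a gene (vertical axes) against those of the probe used (horizontal axes), 1 point per mouse, for the 5 carboxylesterases with 2 kept probes. Circles are females, triangles males, filled points NEKO and open points control mice, and the line marks equal values. The probes of Ces1g, Ces2b and Ces2c follow the line (root mean square gap 0.20, 0.14 and 0.20), whereas those of Ces1c (1.40) and Ces2e (0.37) do not.

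The dim members of the family were left out of the test. Ces1b was well above background on 3 of 4 NEKO and 0 of 4 control arrays, with -5.62, -2.05, -1.51 and -4.76 in NEKO mice 2, 3, 5 and 6 and -6.45, -7.81, -7.32 and -7.53 in control mice 1, 8, 4 and 7. The values of the 4 controls and of NEKO mouse 2 were not above background and have no order among them. Set against the lowest signal well above background on each control array, the mean of the 4 NEKO mice was 3.86-fold higher. This mean holds the measured value of undetected NEKO mouse 2, so it is not a lower bound, and it has no test. Ces3b was well above background on 1 NEKO and 2 control arrays, and Ces4a and Ces5a, the latter known as cauxin from the urine of cats, on none. No probe was named for Ces1a, Ces1h, Ces2d or Ces2h.

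Among other gene groups, the NRF2 target genes had the highest median difference of the lists. Of 14 tested, 1 was called higher, Txnrd1, thioredoxin reductase (log2 difference 1.30, SE 0.17, adjusted p = 0.049 by limma), none lower, and the median difference was 1.38. Cbr3, a carbonyl reductase, was at 5.83 (adjusted p = 0.054) and G6pdx, the first enzyme of the pentose phosphate pathway, at 1.01 (adjusted p = 0.061), both with every NEKO mouse above every control mouse. In this list 9 of 14 genes had every NEKO mouse above every control mouse, as had 1 of the 8 carboxylesterases and 3.88% of all features.

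None of the 13 other drug and xenobiotic hydrolases tested was called between NEKO and control, and their median was 0.02. Ephx1, microsomal epoxide hydrolase, was at 1.30 (SE 0.28, adjusted p = 0.11 by limma) and Esd, the formylglutathione hydrolase, at 0.44 (adjusted p = 0.17), with every NEKO mouse above every control mouse. Aadac, a further esterase of the endoplasmic reticulum, was at -0.31 (adjusted p = 0.20), with every NEKO mouse below. None of the 14 lipases and genes of triacylglycerol turnover was called, with a median of -0.08. Among them Abhd6, a monoacylglycerol lipase, was at -0.47 (adjusted p = 0.18) and Dgat2, which makes triacylglycerol, at 0.14 (adjusted p = 0.40). Lipc, hepatic lipase, was well above background on 4 control arrays and 1 NEKO array (adjusted p = 0.20), so the size of its difference is not given.

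None of the 7 receptors and coregulators of the xenobiotic and lipid response was called, with a median of 0.17. Ppargc1a, a coactivator of nuclear receptors, was at -0.60 (adjusted p = 0.14 by limma) with every NEKO mouse below. Ahr, the dioxin receptor, was at 0.37 (adjusted p = 0.16) with every NEKO mouse above, and Nr1i2, the pregnane X receptor, at 0.32 (adjusted p = 0.30) with overlap. None of the hepatocyte, macrophage, tubular injury and proximal tubule markers was called between NEKO and control. The log2 of the summed hepatocyte markers ran from 2.64 to 2.83 in control and from 2.18 to 3.50 in NEKO kidneys, highest in the NEKO females. That sum was carried mostly by Apob, at 3.09 and 3.03 in the NEKO females. The log2 of the summed macrophage markers ran from 2.95 to 3.31 in control and from 2.73 to 3.94 in NEKO kidneys, highest in NEKO male 6. Of the macrophage markers only Lyz2 was under an unadjusted limma p of 0.05, at 1.38, being 0.08 in females and 2.67 in males. The summed injury markers ran from 6.89 to 7.95 in control and from 7.03 to 7.87 in NEKO kidneys, a sum carried mostly by Spp1, which differed by -0.003. Of the 8 injury markers 4 were higher and 1 lower at an unadjusted p under 0.05, against 7.37% and 10.6% of all features. Their median log2 difference was 0.42, being 0.09 in females and 0.83 in males. The differences were 1.65 for Sox9, 1.37 for Krt20, 1.03 for Krt18 (every NEKO mouse above every control mouse), 0.73 for Lcn2 and -0.85 for Clu (every NEKO mouse below). Sox9 was dim in control kidneys, being well above background on 3 control arrays and 4 NEKO arrays. Vcam1 was at 0.11, and Havcr1, well above background on 3 arrays of each group, at -0.42. The part of these markers in the carboxylesterase values was not tested.

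The genes outside the family whose pattern over the 8 arrays was most like that of Ces1g were Clec4d, a lectin of myeloid cells (root mean square difference 1.30 between control-centred log2 values), Trem2, a receptor of macrophages (1.47), and Cntnap2 (1.47). The likeness was loose, since the 2 probes of Ces1g were only 0.20 apart by the same measure. Clec4d was well above background on 0 control and 4 NEKO arrays, with -4.81 and -3.99 in the NEKO females and -1.62 and -0.95 in the NEKO males. Cntnap2 was likewise well above background on 0 control and 4 NEKO arrays. Both were therefore kept through the NEKO arrays alone, and their control values were not above background.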

How the data were processed

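Kidney total RNA of 8 mice was labelled with Cy3, and the authors deposited 1 Agilent Feature Extraction 10.7.3.1 output per array with processed signal intensity, plus a matrix of log2 values that equalled log2 signal less the array's 75th percentile, centred on each probe's median (100% of values within 0.01). Array annotation was mm9; genes were named here by accession through RefSeq GRCm38.p6. Control spots and outlier spots were left out, spots of a probe averaged, and log2 intensity was scaled to the 75th percentile of each array. A probe was kept if at least 4 of the 8 arrays had it well above background; where several probes of a gene were kept, the one of highest mean stood for the gene. NEKO and control mice were compared with limma 3.58.1 in R 4.3.3 with sex as a term, Benjamini-Hochberg adjusted, called at adjusted p under 0.05. Single genes were also compared with two-sided exact permutation tests, which took no account of sex. The methods of the study name an unpaired unequal-variance comparison for its data in general, which was run as an alternative. The fits were tested on simulated data.

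The members and gene lists were chosen with earlier results of these data known. Named are the members, other carboxylesterases, Keap1 and Nqo1 as label checks, and called genes or up to 3 genes with the smallest p of a list. Also named are the 3 genes most like the member with the smallest p. For the injury markers all 8 are named, chosen after their values were seen. The hepatocyte and macrophage markers are given as sums, with only Apob and Lyz2 named, also after their values were seen. Alternatives were background correction, normalization, scaling, filters on dim probes, probe choice, model, that comparison, the deposited matrix, controls used and leaving out each mouse. The number of arrays limits the precision.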

Additional observations from a re-analysis of the deposited data

Results flagged for a closer look

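Among the 22 sets of 4 mice looked at (11 carboxylesterases in each group), 2 had 1 mouse far from the other 3, and chance gives about 1 in 20. In Ces2g the highest control, male 7, was separated from the next by 0.885 of the range of the group, which spans only -1.57 to -1.40. In Ces1c the highest control, female 1, the K1 mouse without K5-Cre, was separated by 0.884 of the range (-1.06 against -3.15 to -2.91).

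The genotype difference of Ces2g ran in opposite directions in males and females, with every mouse of each sex following its own direction, and the male less the female effect was -1.004 (adjusted p = 0.13 by limma over all features). Sex and slide cannot be told apart here. Ces1b, left out of the test as dim, was well above background on 3 NEKO arrays and 0 control arrays.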

How the results depend on the processing

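No carboxylesterase was called between NEKO and control under any alternative except the methods' unequal-variance comparison without adjustment. That comparison called Ces1d among the members and Ces1c outside them, both higher in NEKO, and 4.81% of all features higher. Features called higher and lower overall were 19 and 25, against 68 and 114 with normexp, 40 and 53 with trend and robust moderation, 35 and 63 with array weights, 0 and 1 with the methods' comparison after adjustment, 8 and 12 with probes detected on all arrays, 14 and 16 with no sex term, 247 and 268 with the effect averaged over the sexes (an alternative chosen after seeing the data), and 9 to 24 and 8 to 25 on leaving out a mouse. The Ces2e difference was -0.0296 with the mean of its probes; the other 7 members kept their direction under every alternative, Ces1d between 0.33 and 0.48 (adjusted p 0.12 to 0.39), Ces1g between 2.21 and 3.59 (0.10 to 0.52) and Ces2c between 0.54 and 0.87 (0.10 to 0.67). The Ces2g male less female effect stayed between -1.13 and -0.70 (0.11 to 0.29). The members called higher in males, 2 in the report, were 0 without the filter on dim probes, which tested 32300 features, and 0 to 1 on leaving out a mouse. Male less female values near 0 changed sign on leaving out a mouse: Ces2a (-0.0546 without NEKO mouse 2 and -0.0217 without control mouse 1, range to 0.150), Ces2e (-0.0393 and -0.0686 without control mice 1 and 7, range to 0.182) and Ces1c (0.137 without control mouse 1, range from -0.846). Using K1Cre controls alone is the same as leaving out control mouse 1. The study used littermates as controls, but the sample labels name no litter, so no paired analysis was possible. The cause of these shifts was not tested.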
